A study of Mus musculus with 19 samples.

Results

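The Hox genes of the 4 mouse clusters were followed in ovary samples over 6 stages of development. A member was any gene whose probe sets carried a single platform symbol of the form Hoxa, Hoxb, Hoxc or Hoxd with a number, and 33 genes of 18193 met this rule, through 48 probe sets. Each gene was represented by its probe set with the highest mean over the 18 ovary arrays. The Hoxa cluster held 9 members, Hoxb 9, Hoxc 7 and Hoxd 8. Hoxb8 and Hoxd4 stood only on probe sets shared with a neighbouring Hox gene and were not members.

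All groups were wild-type mice of the outbred strain CD-1, untreated, with 3 ovary arrays each at gestation days (gd) 11, 12, 14, 16 and 18 and at postnatal day (pnd) 2. The labels give the gd11, gd12 and gd14 samples as pools of 3 and the later ones as not pooled, whereas the series text gives 1 animal per sample. That text ascribes every sample to a dam of its own apart from gd11 samples 18 and 19, which shared 1. The label of gd11 sample 19 names gonad, and those of gd11 samples 16 and 18 name gonad together with mesonephros, the transient kidney beside it. A further single array held whole newborns of pnd 0.5, pooled from 4 males and 4 females. Values are signals of Affymetrix Mouse430_2 arrays on a linear scale, after 2 rounds of RNA amplification, and the number of arrays limits their precision.

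Hox genes encode homeodomain transcription factors that give cells their position along the body axis. Genes at the 3' end of a cluster (low paralog numbers) are switched on early and towards the head, and those at the 5' end (high numbers) later and towards the tail, with Polycomb complexes keeping unused parts of a cluster silent. In the female reproductive tract, Hoxa9, Hoxa10, Hoxa11 and Hoxa13 are known for patterning the Müllerian duct into oviduct, uterus, cervix and vagina. Pbx and Meis proteins, homeodomain factors of the TALE class, bind DNA together with Hox proteins.

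Paralogs 9 and 10 of the Hoxa and Hoxd clusters differed widely in their fitted changes, so their promoter windows are shown. Each runs from 250 bases before to 50 bases after the RefSeq start of the gene in GRCm38.p6, read 5' to 3' on the strand of the gene, with CG dinucleotides in capitals. The Hoxa9 window is chr6:52227321-52227620 (minus strand), Hoxd9 chr2:74697513-74697812 (plus strand), Hoxa10 chr6:52240805-52241104 (minus strand) and Hoxd10 chr2:74691641-74691940 (plus strand).
Hoxa9 promoter: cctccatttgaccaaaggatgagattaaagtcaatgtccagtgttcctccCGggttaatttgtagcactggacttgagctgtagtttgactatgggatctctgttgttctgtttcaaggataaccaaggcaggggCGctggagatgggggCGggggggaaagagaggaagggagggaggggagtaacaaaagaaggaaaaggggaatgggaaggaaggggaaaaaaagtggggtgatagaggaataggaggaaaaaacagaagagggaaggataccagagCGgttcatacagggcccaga
Hoxd9 promoter: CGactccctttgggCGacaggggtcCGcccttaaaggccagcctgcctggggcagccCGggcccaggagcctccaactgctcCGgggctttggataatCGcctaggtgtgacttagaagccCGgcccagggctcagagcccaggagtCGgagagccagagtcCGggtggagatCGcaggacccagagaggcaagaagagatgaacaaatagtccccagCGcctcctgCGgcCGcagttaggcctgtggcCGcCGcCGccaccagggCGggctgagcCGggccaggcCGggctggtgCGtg
Hoxa10 promoter: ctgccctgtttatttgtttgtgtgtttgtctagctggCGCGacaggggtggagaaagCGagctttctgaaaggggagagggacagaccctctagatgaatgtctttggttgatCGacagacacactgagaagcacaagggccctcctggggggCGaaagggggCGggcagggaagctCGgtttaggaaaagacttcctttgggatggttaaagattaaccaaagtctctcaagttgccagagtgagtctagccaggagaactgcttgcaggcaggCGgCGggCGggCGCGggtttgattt
Hoxd10 promoter: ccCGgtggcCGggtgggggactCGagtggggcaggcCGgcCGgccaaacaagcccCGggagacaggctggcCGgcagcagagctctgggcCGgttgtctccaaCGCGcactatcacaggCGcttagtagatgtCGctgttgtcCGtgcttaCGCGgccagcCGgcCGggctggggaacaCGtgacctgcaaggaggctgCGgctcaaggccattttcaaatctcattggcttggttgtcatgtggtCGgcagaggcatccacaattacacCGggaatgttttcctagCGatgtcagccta

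These windows held 4 CG dinucleotides for Hoxa9, 20 for Hoxd9, 12 for Hoxa10 and 22 for Hoxd10. RefSeq promoters were matched for 19 of the 33 members, with a median of 14 CG dinucleotides against 7 over the 27025 genes of the table. Of the 19 windows, 16 held more than 7, as did 49.0% of all windows. The letters TGATNNAT, a joint site of Pbx and Hox proteins, were found on either strand in the windows of 2 members, Hoxa2 and Hoxb1, and in 9.04% of all windows. The letters TTTATNG, bound by Hox proteins of high paralog number, were found in 0 of the 19 and in 11.3% of all windows. Neither motif contains the other, and a missing match says only that these letters are not in this window.

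A signal of 116.05, the median of all values of the ovary arrays, served as the level a gene had to exceed in its mean of at least 1 stage to be tested. Of the 33 members, 25 did so and 8 did not at any stage (Hoxa4, Hoxa13, Hoxb7, Hoxb9, Hoxb13, Hoxc13, Hoxd11 and Hoxd12). The 25 all exceeded the level at gd11, and their number fell to 20 at gd12, 13 at gd14, 11 at gd16, 12 at gd18 and 10 at pnd2. They were therefore admitted at the stage where most were highest, and counts among them are given beside counts over all 33 members. The stage with the highest mean was gd11 for 20 of the 25 and gd12 for 5, against 21.3% and 10.3% of all genes above the level. The lowest mean was at pnd2 for 15, gd14 for 4, gd16 for 3 and gd18 for 3.

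Several arrays stood apart in ways that touch the results. On gd16 sample 7, Xist, the RNA that coats the inactive X chromosome, had a signal of 44.8, against at least 11306 on the other ovary arrays, while the Y-linked Eif2s3y was at most 40.2 there and 803 in the newborns of both sexes. That array goes against its label of female in Xist, and gd16 results are given with and without it. Genes of neurons summed to 37578 on gd11 sample 16 and to 6415 and 6326 on the other gd11 arrays. Genes of the supporting lineage, such as Fst and Foxl2, summed to 37984 on gd12 sample 14 and to 16221 and 22822 on the other gd12 arrays. Gapdh probe sets at the 3' and 5' ends, whose ratio is a measure of RNA quality, stood in a ratio between 2.987 and 3.28 on gd11 arrays, between 3.479 and 4.284 on gd12 arrays and between 5.068 and 5.408 on pnd2 arrays. Over 9 Y-linked probe sets on the ovary arrays, 95% of values lay under 46.3, which gives a measure of the background.

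From gd11 to pnd2 the Hox genes fell in all 4 clusters. By limma, with p-values adjusted by the method of Benjamini and Hochberg, 24 of 25 tested members were called lower at an adjusted p under 0.05 and 0 were called higher. Over all tested genes, 20.6% were called lower and 26.3% higher. The median log2 change of the 25 was -1.95, against 0.04 for all tested genes, on the scale of log2(signal + 31), which makes changes of weak signals look smaller. Over all 33 members with no filter, 24 were called lower and 1 higher, beside 13.5% of all genes called lower. With each array scaled to its median signal, 25 of 25 were lower, and 3399 of 12538 genes were lower and 2659 higher, against 2585 and 3309 of 12566 as deposited. The labels of gd11 samples 16 and 18 name gonad together with mesonephros, and those of all later stages name ovary. For these arrays the change of stage and the change of dissected tissue cannot be told apart. Of the 33 members, 25 were lower at pnd2 without overlap, beside 19.4% of all genes. In these members gd11 sample 19, labelled gonad, lay above every pnd2 array too. The part of the dissected tissue in the fall was not tested. Within the tissue, fewer cells of a type and less RNA per cell cannot be told apart either.

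The changes of the whole span are drawn by cluster and paralog number. The median log2 change was -2.60 in the Hoxa cluster (7 tested), -2.61 in Hoxb (6 tested), -1.90 in Hoxc (6 tested) and -0.97 in Hoxd (6 tested). As a share of its own gd11 signal, the median member kept 14.0% at pnd2 in the Hoxa cluster, 10.7% in Hoxb, 24.7% in Hoxc and 40.3% in Hoxd. By paralog number, the median change was -1.77 for groups 1 to 4, -2.52 for groups 5 to 8 and -1.69 for groups 9 to 13. These medians are descriptions, and the differences between clusters were not tested as such. The pnd2 means of Hoxa3, Hoxa7, Hoxa10, Hoxa11, Hoxb1, Hoxb5, Hoxd1 and Hoxd13 lay within the Y-linked background. The Hoxa median of -2.60 is the change of Hoxa7. The falls of these genes may be larger than measured, so clusters and paralog groups cannot be ranked by the medians.

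**Figure D1:**
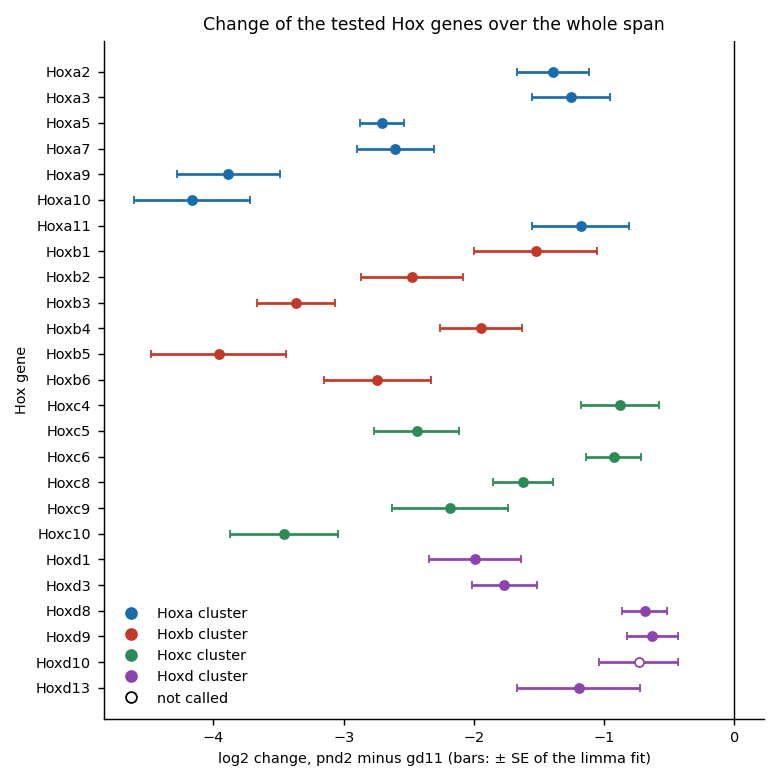
Log2 change from gd11 to pnd2 (horizontal axis, with bars of ± SE of the limma fit, 3 arrays a stage) for the 25 tested Hox genes, ordered by cluster and paralog number. Filled points are called lower and the open point, Hoxd10, is not called. The points run from -4.17 for Hoxa10 to -0.63 for Hoxd9.

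Hoxa10, which patterns the uterus, was among the members with the largest fitted changes of the span. Its signals were 1417, 951 and 1324 on the gd11 arrays and 29.8, 45.9 and 40.4 at pnd2, a log2 change of -4.17 ± 0.45 (SE, limma adjusted p = 6.32e-07). The groups did not overlap, and all 3 pnd2 values lay within the range of the Y-linked background. Hoxb5, a trunk gene of paralog group 5, had 994, 818 and 508 at gd11 and 11.3, 36.8 and 12.5 at pnd2 (-3.96 ± 0.52, limma adjusted p = 6.53e-06). Its pnd2 values too lay within the Y-linked background, so the size of its fall, like that of Hoxa10, cannot be ranked. Hoxc10, of the paralog group of lumbar identity, had 1328, 742 and 1260 at gd11 and 57.4, 57.5 and 99.2 at pnd2 (-3.46 ± 0.41, limma adjusted p = 2.39e-06). In both genes every pnd2 array lay under every gd11 array.

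Hoxa9, which patterns the oviduct, went from 13275, 5962 and 9714 at gd11 to 518, 763 and 520 at pnd2 (-3.89 ± 0.39, limma adjusted p = 3.36e-07). Its gd11 arrays differed by more than 2-fold among themselves, and the lowest of them was still above every pnd2 array. Hoxb3, of the paralog group expressed in the hindbrain and pharyngeal arches, went from 2678, 1593 and 1510 to 175, 141 and 144 (-3.37 ± 0.30, limma adjusted p = 5.82e-08). Hoxb6 went from 1085, 472 and 360 to 36.5, 91.8 and 57.3 (-2.74 ± 0.41, limma adjusted p = 3.03e-05). In Hoxb3 and Hoxb6 gd11 sample 16 was the highest array, and in Hoxb6 it carried more than the other gd11 arrays together.

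At the other end of the range stood the middle of the Hoxd cluster. Hoxd9 had 1924, 2241 and 1818 at gd11 and 1268, 1628 and 1000 at pnd2 (-0.63 ± 0.20, limma adjusted p = 0.0151), so that its pnd2 mean was 65.1% of its gd11 mean. Hoxd8 had 1368, 958 and 1125 at gd11 and 730, 785 and 582 at pnd2 (-0.69 ± 0.17, limma adjusted p = 0.00349). Hoxd10, the 1 tested member not called, had 309.5, 379 and 809.5 at gd11 and 294, 244 and 255 at pnd2 (-0.74 ± 0.30, limma adjusted p = 0.059). In all 3 genes the pnd2 arrays lay under the gd11 arrays without overlap, although the nearest values of Hoxd10 were 294 and 309.5. The call of Hoxd9 was lost without gd11 sample 18 or without pnd2 sample 3, and its change ran from -0.80 to -0.46 with 1 array left out. Hoxd10 is named here after its values were seen.

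**Figure D2:**
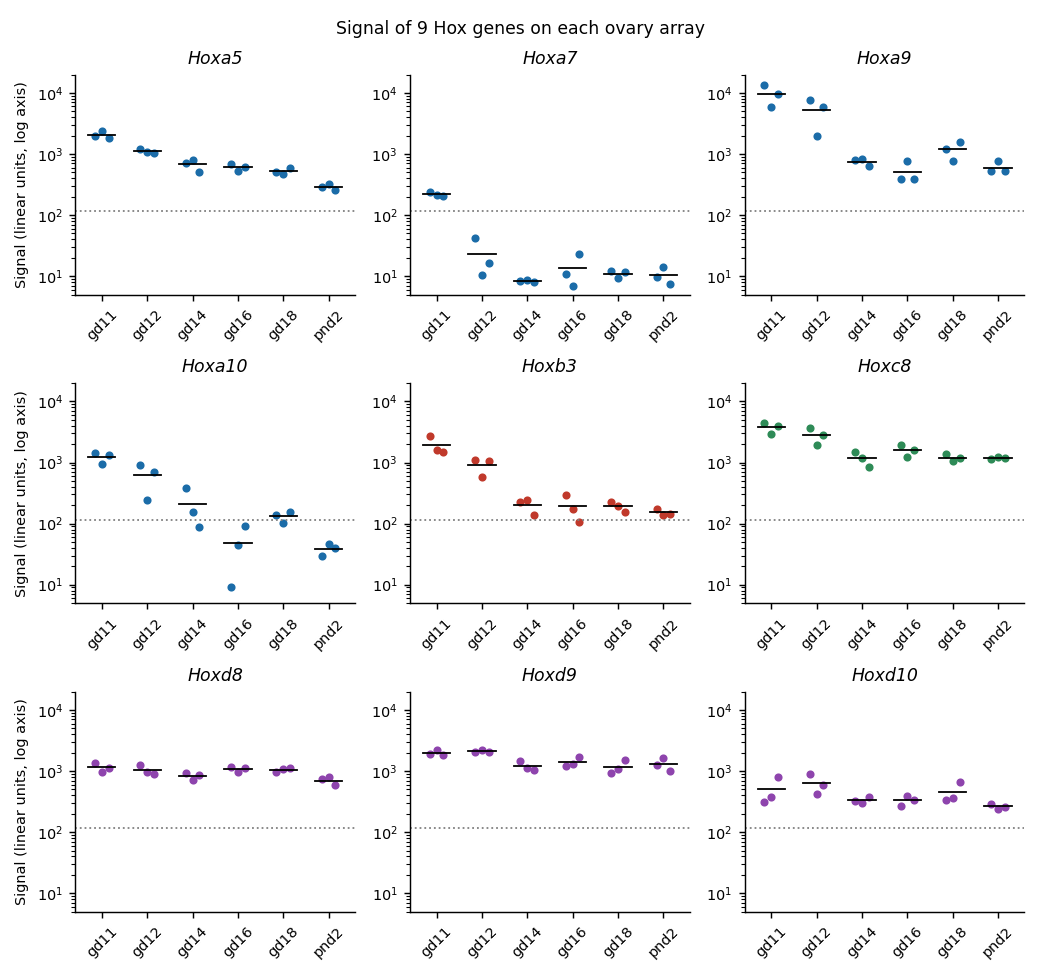
Signal (vertical log axis, linear units) of 9 Hox genes on each ovary array by stage. Points are single arrays, 3 a stage, black lines their mean and the dotted line the filter level of 116.05. Hoxa7 drops between gd11 and gd12, Hoxa9 and Hoxb3 between gd12 and gd14, and Hoxd8, Hoxd9 and Hoxd10 stay above the dotted line on every array.

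The 25 members whose pnd2 arrays all lay under the gd11 arrays, of 33 and with no filter, compare with 19.4% of all genes. They were the 24 called members other than Hoxd13, with Hoxd10 added, and Hoxb9 from below the filter level. The 1 member higher without overlap, beside 24.5% of all genes, was Hoxc13, at 4.94, 5.81 and 5.56 on the gd11 arrays and 56.0, 54.3 and 6.99 at pnd2, with 1 of the pnd2 arrays and every gd11 array within the Y-linked background. Hoxd13, the most 5' gene of its cluster and a gene of limb and genital tubercle, was called lower (-1.20 ± 0.47, limma adjusted p = 0.048), with 44.8, 155 and 208 at gd11 and 9.93, 50.6 and 53.0 at pnd2. Its groups overlapped, and the call was lost under 17 of 27 other settings. The span calls of Hoxa11 (without gd11 sample 19 or pnd2 sample 1), Hoxb1 (without pnd2 sample 2) and Hoxc4 (without gd11 sample 16 or 19 or pnd2 sample 1 or 2) also rested on single arrays.

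Other probe sets of the same genes gave a second reading. Among 15 further probe sets of 11 members, 7 exceeded the filter level, and all 7 were lower at pnd2. In the fit with no filter 6 of them were called lower, beside 4963 of all 45037 probe sets. Among the 26431 probe sets above the filter level, 5167 were called lower in the main fit. A second Hoxa5 probe set fell by 3.35 on the log2 scale, against 2.70 for the one that represents the gene. A second Hoxa9 probe set changed by -1.47, against -3.89. A second Hoxd8 probe set changed by -0.61 ± 0.18, against -0.69. All 7 thus shared the direction, and the sizes were near each other in some genes and apart in others.

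On the log2 scale, most of the fall of the called members was reached by gd14. For the 24 members called lower over the span, the median share of the log2 fall reached by gd12 was 29.3%, and by gd14 it was 82.1%, with a range from 27.0% (Hoxd1) to 120% (Hoxb4). At gd14 22 of the 24 had completed at least 50% of their fall, and the exceptions were Hoxa11 and Hoxd1. The 24 were admitted at gd11 and picked for a fall from gd11, which favours an early share. The gd14 means of Hoxa7 (8.47), Hoxb1 (25.7), Hoxb4 (33.0) and Hoxd13 (36.7) lay within the Y-linked background, where a later fall cannot be seen. The steps were not alike from gene to gene, as the map of all members shows.

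**Figure D3:**
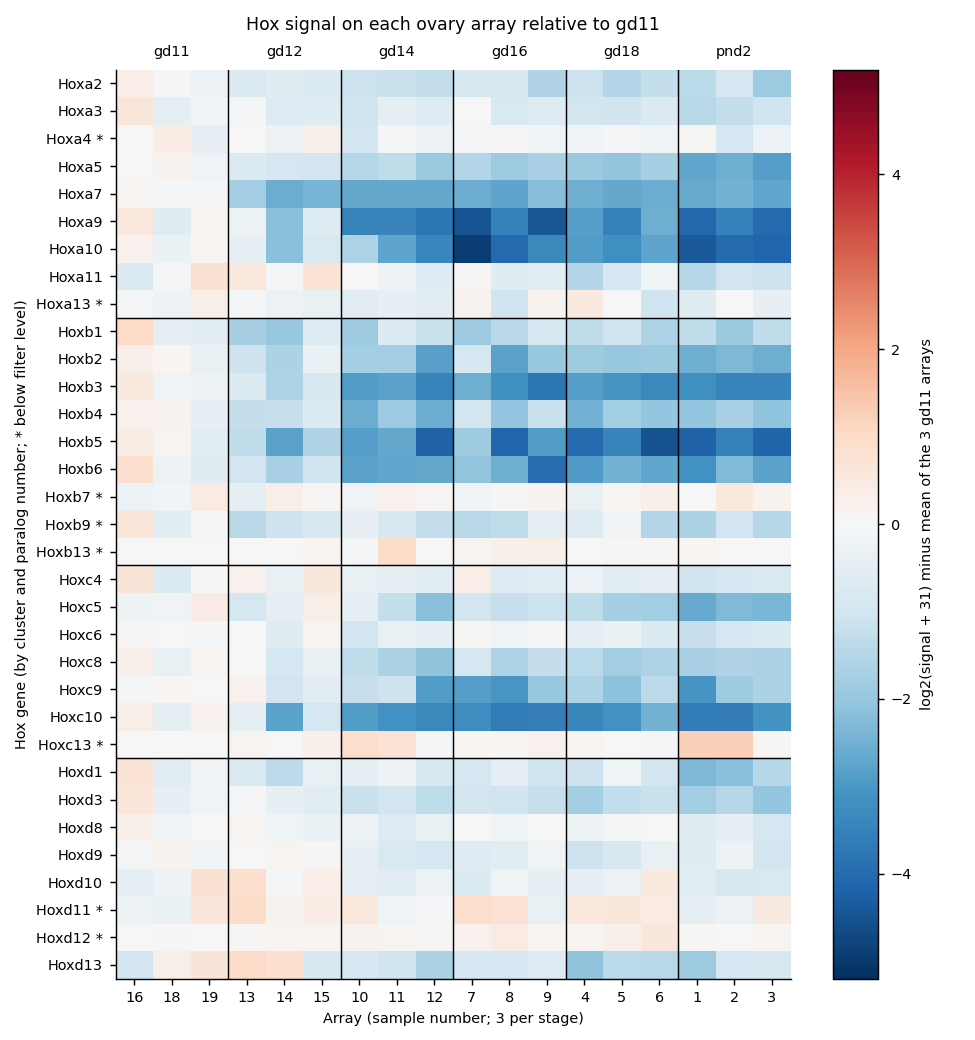
Log2(signal + 31) of the 33 Hox genes (rows, by cluster and paralog number) on each of the 18 ovary arrays (columns, by stage and sample number), minus the mean of the 3 gd11 arrays of the gene. Blue is lower and red higher than gd11, and an asterisk marks the 8 genes under the filter level. The blue of Hoxa9, Hoxa10, Hoxb3, Hoxb5 and Hoxc10 deepens at gd14, while Hoxd8 to Hoxd10 stay pale.

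From gd11 to gd12, 3 of 25 members were called lower and 0 higher by limma, where 1.42% of all tested genes were called lower and 3.3% higher. Over all 33 members with no filter 2 were called lower, beside 0.665% of all genes. With median scaling 6 of the 25 were called lower, and 382 of 12538 genes were lower and 287 higher, against 178 and 415 of 12566 as deposited. Without gd12 sample 14, 2 of the 25 members were called lower, and 33 of 12573 genes were lower and 158 higher. The median change was -0.70, against 0.00 for all tested genes, and 20 of the 25 changes were below 0. Without overlap between the arrays, 10 of the 33 members were lower, beside 9.3% of all genes, and 0 were higher, beside 11.6%. Hoxa7, a trunk gene, had 240, 212 and 208 at gd11 and 41.6, 10.6 and 16.6 at gd12 (-2.26 ± 0.30, limma adjusted p = 0.000369). From gd12 on its signal was 6.81 to 41.6 on all arrays, within the Y-linked background, so the later stages hold no level to compare.

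Hoxa5, known for its part in lung and cervical vertebrae, had 1998, 2361 and 1829 at gd11 and 1193, 1096 and 1033 at gd12 (-0.87 ± 0.17, limma adjusted p = 0.00606). It was the only member called in 3 of the 5 steps between neighbouring stages, and its gd11 and gd12 arrays did not overlap. Hoxb5 had 280, 80.6 and 233 at gd12 (-1.89 ± 0.52, limma adjusted p = 0.0452), a call that was lost in 17 of 29 other settings. Genes of neurons were higher on gd11 sample 16 than on the other gd11 arrays, and that array was the highest at gd11 for 18 of the 25 members. Without it 2 of 23 tested members were called at gd12, and 372 of 12496 genes in either direction, against 593 of 12566 with it. With gd11 sample 19, labelled gonad, as the only gd11 array, the spread came from the other stages, which assumes that it varies like them. In that setting 0 of 24 members and 52 of 12509 genes were called at gd12. The median Hox change at gd12 was -0.58, with 22 of 24 below 0. With gd11 samples 18 and 19, which shared a dam, averaged to 1 sample, 2 of 25 members were called at gd12 and 22 of 25 over the span, where Hoxa11 and Hoxd13 were lost. No share of all genes is set beside these last counts, so they say only how many members kept the call.

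Between gd12 and gd14 the most members were called, 11 of 25 lower and 0 higher, where 8.01% of all tested genes were called lower and 11.6% higher. This interval is longer than that from gd11 to gd12, where the median Hox change was -0.70, and rates per day were not compared. The median change was -0.82, against -0.02 for all tested genes, and 16 of the 33 members were lower without overlap, beside 15.9% of all genes. Over all 33 members with no filter, 9 were called lower, beside 4.52% of all genes. The 11 came from every cluster: Hoxa5, Hoxa9, Hoxa10, Hoxb3, Hoxb4, Hoxb6, Hoxc8, Hoxc10, Hoxd3, Hoxd9 and Hoxd13. By paralog number, they were 3 of 9 tested members of groups 1 to 4, 3 of 8 of groups 5 to 8 and 5 of 8 of groups 9 to 13.

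Hoxa9 had 7704, 2000 and 5849 at gd12 and 786, 815 and 641 at gd14 (-2.55 ± 0.39, limma adjusted p = 0.000192). Hoxb3 had 1092, 584 and 1044 at gd12 and 222, 242 and 139 at gd14 (-1.99 ± 0.30, limma adjusted p = 0.000135). Hoxc10 had 755, 131 and 562 at gd12 and 115, 93.5 and 78.0 at gd14 (-1.75 ± 0.41, limma adjusted p = 0.00674). In these 3 genes gd12 sample 14, the second value, was by far the lowest of its stage, and it still lay above every gd14 array.

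Hoxd13 had 271, 240 and 54.0 at gd12 and 51.0, 42.5 and 16.5 at gd14 (-1.53 ± 0.47, limma adjusted p = 0.0313), with gd12 sample 15 near the gd14 arrays. Hoxb6 had 275, 157 and 261 at gd12 and 57.04, 62.8 and 63.4 at gd14 (-1.48 ± 0.41, limma adjusted p = 0.0188). Hoxa10 had 906, 245 and 694 at gd12 and 384, 156 and 88.4 at gd14 (-1.45 ± 0.45, limma adjusted p = 0.0323), and here the 2 stages overlapped. Hoxc8, a gene of thoracic identity, had 3717, 1973 and 2853 at gd12 and 1489, 1182 and 859 at gd14 (-1.24 ± 0.23, limma adjusted p = 0.00115). Hoxd9 had 2019, 2206 and 2081 at gd12 and 1457, 1124 and 1044 at gd14 (-0.80 ± 0.20, limma adjusted p = 0.00902). Neither Hoxc8 nor Hoxd9 had overlapping arrays in this step.

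The gd12 arrays were not alike. Sample 14 was the lowest gd12 array for 13 of the 20 members above the filter level at that stage, and sample 13 the highest for 13. Sample 14 also had the highest supporting lineage sum, close to the 36155 to 37230 of the gd14 arrays, and the highest germ cell sum, 23308 against 14893 and 9626. Without sample 14, 14 of 25 members were called at gd14, and without sample 13 or sample 15, 7 were. Genes called lower numbered 960 of 12573, 563 of 12576 and 510 of 12579 in these settings, against 1007 of 12566 with all arrays. Hoxa5, Hoxa9, Hoxb3, Hoxc8 and Hoxd9 kept the call whichever array was left out, Hoxb4 lost it without gd12 sample 15 and Hoxc10 without gd12 sample 13. Hoxa10, Hoxb6, Hoxd3 and Hoxd13 each lost it without any of 3 to 6 single arrays. The part of cell composition in the fall was not tested.

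After gd14 fewer members were called in each step than between gd12 and gd14. Between gd14 and gd16, Hoxa10 was called lower and Hoxb4 higher among the 25 tested, where 9.77% of all tested genes were called lower and 11.4% higher. With each array scaled to its median signal, 1915 of 12538 genes were lower and 561 higher, against 1228 and 1438 of 12566 as deposited. Hoxa10 had 9.30, 45.5 and 90.1 at gd16 (-1.55 ± 0.45, limma adjusted p = 0.0219), with the lowest value on the array that lacks Xist. Hoxb4, known from blood stem cells, had 103, 108 and 161 at gd12, 22.7, 54.4 and 22.0 at gd14 and 133, 45.2 and 110 at gd16. The rise of 0.95 ± 0.31 (limma adjusted p = 0.0407) followed a fall of 1.29 ± 0.31 in the step before. Neither gene was called at gd16 without gd16 sample 7 or without gd14 sample 10, where 1003 of 12548 and 1040 of 12584 genes were called lower, and the gd14 and gd16 arrays overlapped in both. Hoxb4 was not called with quantile normalization or median scaling either.

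Between gd16 and gd18, 0 of 25 members were called by limma, where 8.19% of all tested genes were called in either direction (408 lower and 621 higher, or 201 and 777 with median scaling). At an unadjusted p under 0.05 there were 3, and without gd16 sample 8 or gd12 sample 14 the test called 2 and 1. Without gd16 sample 7, the array without Xist, 0 of 25 members were called, and 598 of 12548 genes, against 1029 of 12566 with it. Hoxa9 had 384, 774 and 389 at gd16 and 1227, 782 and 1560 at gd18, with no overlap. Hoxc10 had 85.6, 58.9 and 64.1 at gd16 and 74.8, 95.1 and 173 at gd18, with overlap. Hoxc8 had 1964, 1210 and 1586 at gd16 and 1387, 1041 and 1193 at gd18, and Hoxd9 had 1222, 1320 and 1703 and then 917, 1086 and 1528. Both pairs of groups overlapped.

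After birth, between gd18 and pnd2, 3 of 25 members were called lower and 0 higher, where 6.85% of all tested genes were called lower and 8.48% higher (861 and 1065, or 579 and 1164 with median scaling). Over all 33 members with no filter 2 were called lower, beside 3.64% of all genes. Without overlap, 11 of the 33 members were lower, beside 14.4% of all genes, and 21 of the 25 changes were below 0, with a median of -0.35. Hoxd1, the most 3' gene of its cluster, had 57.8, 129 and 66.8 at gd18 and 6.52, 11.2 and 36.5 at pnd2 (-1.23 ± 0.35, limma adjusted p = 0.0266). Its gd18 mean of 84.5 was under the filter level. Its pnd2 values lay within the Y-linked background, so the size of this fall cannot be ranked. Hoxa5 had 508, 470 and 601 at gd18 and 288, 323 and 258 at pnd2 (-0.80 ± 0.17, limma adjusted p = 0.00419). Hoxd8 had 949, 1069 and 1118 at gd18 and 730, 785 and 582 at pnd2 (-0.57 ± 0.17, limma adjusted p = 0.0371). The pnd2 arrays lay under the gd18 arrays in all 3, and without gd18 sample 5 or 6, or without pnd2 sample 1, a single call was left.

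Over the 6 stages the F test of limma called 23 of the 25 members, where 68.1% of all tested genes were called, and the 2 not called were Hoxb1 and Hoxc4. Over all 33 members with no filter it called 23, beside 46.8% of all genes. Hoxb1, which specifies a hindbrain segment, had 236, 62.7 and 53.8 at gd11, so that 1 array carried its level. Its later stage means were 14.6 to 25.7, within the Y-linked background. Hoxc4 kept means of 330 to 729 over the stages, and gd11 alone ran from 368 to 1006.

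Paralogs, the copies of 1 ancestral gene in different clusters, differed in their fitted changes, but no difference could pass a test. For 17 pairs of tested members of the same number, the difference of their log2 signals was taken on each array and compared between pnd2 and gd11. In 15 pairs these differences did not overlap between the stages, and the smallest p that an exact two-sided permutation test of 3 against 3 arrays can give, 0.1, was reached (0.113 after adjustment over the 17 pairs), so none could pass 0.05. The pairs share genes, such as Hoxa9, Hoxc9 and Hoxd9 in 3 of them. No share over pairs of genes at large was computed, so nothing particular to paralogs is read from the 15 pairs. The log2 difference of Hoxa9 and Hoxd9 fell by 3.26 and that of Hoxa10 and Hoxd10 fell by 3.43, as the Hoxa gene lost more. That of Hoxc10 and Hoxd10 fell by 2.72, and that of Hoxa10 and Hoxc10 fell by 0.71. The pnd2 values of Hoxa10 lay within the Y-linked background, so the sizes of its shifts cannot be ranked. In group 3, Hoxb3 lost more than Hoxd3, with a shift of -1.60, and the shift of Hoxa3 against Hoxb3 was 2.11. The pnd2 mean of Hoxa3, 45.3, lay within the Y-linked background, so the size of its shift cannot be ranked. The pairs that overlapped were Hoxa5 with Hoxc5 and Hoxb1 with Hoxd1. All pnd2 values of Hoxb1, Hoxb5 and Hoxd1 also lay within the Y-linked background.

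Among the cofactors of Hox proteins, 7 TALE genes were tested. Over the span 5 of the 7 were called lower and 0 higher by limma, with a median change of -0.95, where 20.6% of all tested genes were called lower. Meis2 went from 8495, 12036 and 13407 at gd11 to 1185, 1194 and 790 at pnd2 (-3.38 ± 0.26, limma adjusted p = 9.75e-09). Meis1 went from 3533, 4918 and 7316 to 918, 1442 and 1227 (-2.07 ± 0.29, limma adjusted p = 1.38e-05), and Pbx2 changed by -1.32 ± 0.17. In Meis1 and Meis2 gd11 sample 16, highest for most Hox genes, was the lowest gd11 array. At gd14 Meis2 (-1.30 ± 0.26) and Meis1 (-1.28 ± 0.29) were lower than at gd12, while Pbx3 was higher, with 4328, 3040 and 4005 and then 8610, 7327 and 7170 (1.03 ± 0.13, limma adjusted p = 2.16e-05).

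**Figure D4:**
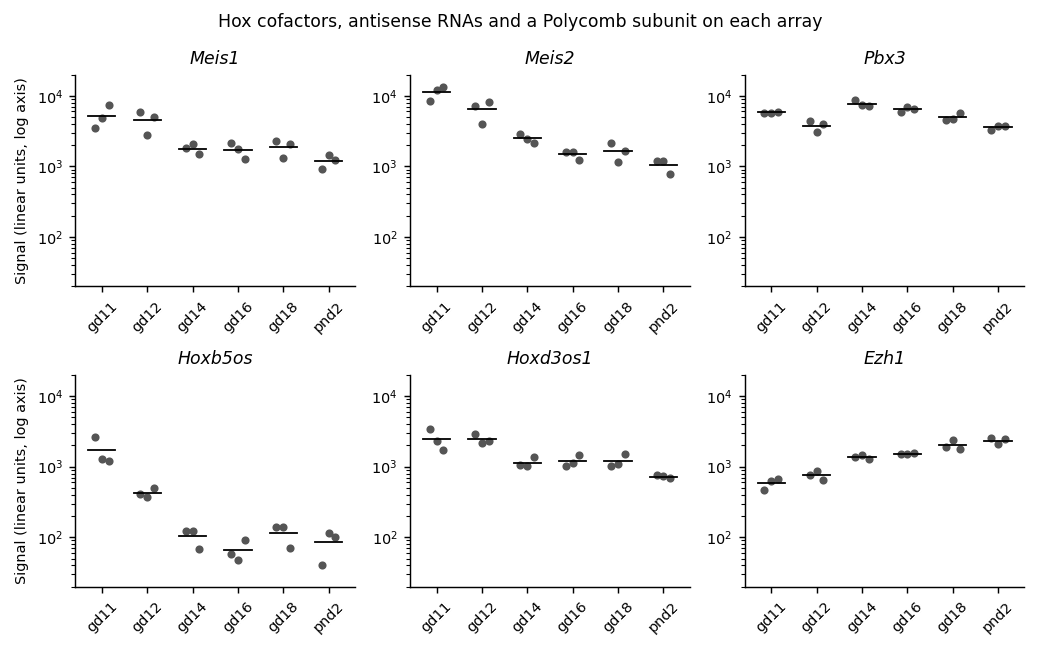
Signal (vertical log axis, linear units) of the TALE cofactors Meis1, Meis2 and Pbx3, the cluster RNAs Hoxb5os and Hoxd3os1 and the Polycomb subunit Ezh1 on each ovary array by stage. Points are single arrays, 3 a stage, and black lines their mean. Meis1, Meis2 and both cluster RNAs are lowest at the late stages, Pbx3 is highest at gd14, and Ezh1 is higher at pnd2 than at gd11.

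The 2 tested noncoding RNAs of the clusters fell with the genes beside them. Hoxb5os, transcribed opposite the Hoxb cluster, had 2645, 1281 and 1199 at gd11, 407, 371 and 507 at gd12, 123, 122 and 67.2 at gd14 and 40.3, 116 and 101 at pnd2. Its log2 change was -1.84 ± 0.32 in the first step (limma adjusted p = 0.00307), -1.79 ± 0.32 in the second (limma adjusted p = 0.000812) and -3.87 ± 0.32 over the span. Its size is not set against the -3.96 of Hoxb5, whose pnd2 values lay within the Y-linked background. Hoxd3os1 had 3397, 2323 and 1729 at gd11 and 762, 727 and 681 at pnd2 (-1.68 ± 0.21, limma adjusted p = 4.83e-06), near the -1.77 of Hoxd3. Cdx, Evx and ParaHox genes, homeobox relatives of the clusters, exceeded the filter level in 0 of 8 cases.

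Over the span, the counts of called chromatin regulators and flanking genes stand beside 26.3% of all tested genes called higher and 20.6% called lower, and nothing particular to these small lists is read from them. Of 16 tested Polycomb subunits, 5 were called higher and 4 lower, with a median of -0.03 against 0.04 for all tested genes. The catalytic subunits went opposite ways: Ezh1 rose from 473, 635 and 677 at gd11 to 2511, 2079 and 2438 at pnd2 (1.93 ± 0.15, limma adjusted p = 1.74e-08), and Ezh2 changed from 9447, 7720 and 8444 to 4027, 2962 and 3338 (-1.31 ± 0.13, limma adjusted p = 3.44e-07). Cbx7, a reader of the Polycomb mark, rose by 1.29 ± 0.29. Of 10 trithorax-type activators 1 was higher (Kmt2c, a histone methyltransferase, 1.23 ± 0.24) and 2 were lower (Kmt2a, -0.69 ± 0.16, and Ash2l, -0.43 ± 0.15). Of 11 tested genes that flank the clusters, 3 were higher, led by Skap1 (1.48 ± 0.38) and Skap2 (0.97 ± 0.14), and 3 lower, led by Cbx5 (-1.31 ± 0.12).

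Markers of other cells changed over the same span. Of 16 tested genes of mesonephros, nephric and Müllerian duct, 9 were called lower and 2 higher, where 20.6% of all tested genes were lower and 26.3% higher, and without gd11 sample 16 the number called lower was 9 too. Foxd1, a renal stroma factor, changed by -5.84 ± 0.33, Lhx1 by -2.95 ± 0.47 and Ret by -2.92 ± 0.42, while the summed signal of the list was 10885 to 12287 at gd11 and 11041 to 16421 at pnd2. Amhr2, the receptor of anti-Müllerian hormone and also a gene of the gonad, rose by 2.42 ± 0.24. Of 10 tested genes of neurons and neural crest 8 were called lower and 1 higher, and their sum went from 6326 to 37578 at gd11 to 1308 to 2196 at pnd2. Genes of red blood cells were called lower in 4 of 4 tested, with sums of 49121 to 57000 at gd11, 33235 to 35707 at gd14 and 109 to 196 at pnd2. Genes of germ cells were called higher in 9 of 10, with sums of 3296 to 3737 at gd11, 44035 to 51198 at gd14 and 28564 to 36339 at pnd2, and genes of the supporting lineage in 9 of 12. The part of these markers in the fall of the Hox genes was not tested.

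The whole newborn array gave a point of comparison without replicates and therefore with no test. On the scale of log2(signal + 31), 4 of the 33 members were at least 2-fold higher in the pnd2 ovary mean than in the newborns, and 6 were at least 2-fold lower. The share of all genes that differ 2-fold was not computed, so nothing particular to Hox genes is read from these counts. Hoxd9 was at 1298 ± 315 (SD, n = 3) in the ovary and 305 in the newborns, Hoxc5 at 360 ± 47.2 and 98.3, Hoxd10 at 264 ± 26.4 and 81.5, and Hoxc8 at 1191 ± 53.4 and 437. The lower members were Hoxa5, Hoxa10, Hoxa11, Hoxb2, Hoxb5 and Hoxc10, of which Hoxa10, Hoxa11 and Hoxb5 had pnd2 means within the Y-linked background. Hoxa10 was at 38.7 ± 8.2 in the ovary and 391 in the newborns, and Hoxb5 at 20.2 ± 14.4 and 338. The newborn array is of another age and of both sexes.

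**Figure D5:**
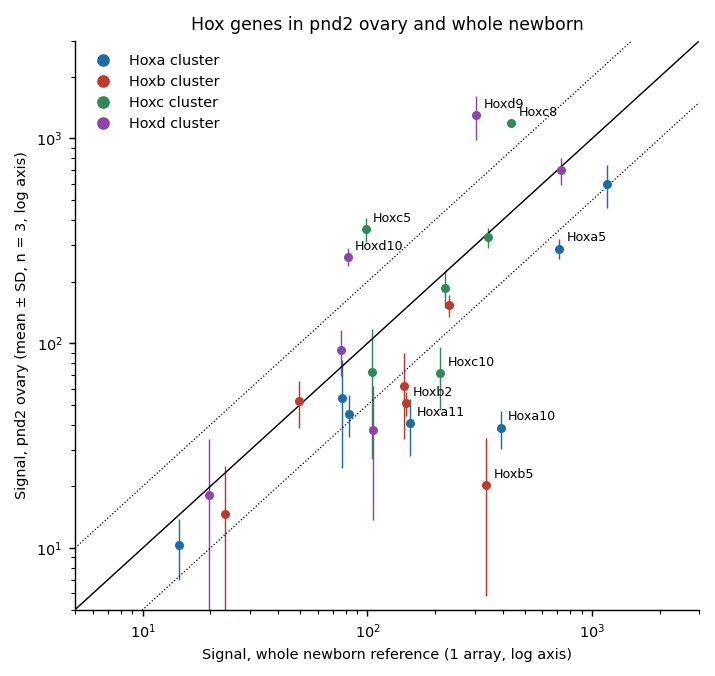
Signal of the 25 tested Hox genes in pnd2 ovary (vertical log axis, mean ± SD, n = 3) against the single whole newborn array (horizontal log axis), coloured by cluster. The solid line marks equal signal and the dotted lines 2-fold differences of the signal, and the 10 named genes differ at least 2-fold on the log2(signal + 31) scale. Hoxd9, Hoxd10, Hoxc5 and Hoxc8 lie above the upper dotted line.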

How the data were processed

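The authors deposited 1 linear signal intensity for each probe set and array. The submitters' processing notes name GCOS, with version, settings and background handling not given in the sources used here. The 2%-trimmed mean of each ovary array was 500.003, so values were used as deposited. Of 45101 probe sets, 34945 had a single gene symbol in the platform annotation, 932 had several and 9160 none, and 64 controls were left out. Groups came from the stage labels. The 26431 probe sets above 116.05 in at least 1 stage mean were fitted on log2(signal + 31), the 25th percentile, with limma 3.58.1 in R 4.3.3 (1 term a stage, mean-variance trend, 12 residual degrees of freedom, two-sided). P-values were adjusted by Benjamini-Hochberg over these probe sets. The members, gene lists and tests were chosen with earlier results of these data known. Array values are printed for up to 6 called members of largest change in each comparison and the member of highest mean signal in each cluster, and up to 3 called genes of a list. Replicates are separate samples per the series text, with a shared dam for gd11 samples 18 and 19, and p-values measure the spread between those samples. The procedure was checked on simulated arrays, in which 95.5% of 200 genes changed 4-fold between gd12 and gd14 were recovered among 26431 probe sets, with 6.83% of calls false. Alternatives covered the pseudocount, scaling, filter, arrays fitted, variance trend, the gd11 samples, probe set averaging and each array left out. Figures were drawn with matplotlib 3.10.9.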

Additional observations from a re-analysis of the deposited data

How the results depend on the processing

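Each of 43 named changes of Hox genes was fitted under up to 29 alternative settings, most of them with 1 array left out. Of the 1223 combinations of change and setting, which share most arrays, 1120 kept direction and call, 103 kept the direction but lost the call, and 0 reversed. The changes kept under every setting in which they were tested numbered 24. Called members at gd12 numbered 3, and 2 to 4 with 1 array left out. With gd11 sample 19 alone the median Hox change at gd12 was -0.58. With the pseudocount at the median signal 7 members were called at gd12, and 206 of 12566 genes were lower, against 178 in the main setting. With arrays scaled to their median 6 members were called at gd12, and 382 of 12538 genes were lower. At gd14 the called members numbered 11, and 7 to 14 with 1 array left out. At gd16 the 2 calls became 0 with the pseudocount at the median signal or only the arrays compared, and 1 with quantile normalization, median scaling, no filter, a filter at 507.26 or averaging the probe sets of each gene (0 to 3 with 1 array left out). At gd18 0 became up to 2. At pnd2 against gd18 the 3 became 5 with only the arrays compared, and 1 to 5 with 1 array left out. Over the span 24 became 12 with the filter at 507.26, which tested 13 members, and 21 to 25 with 1 array left out. The F test's 23 became 12 under that filter and 21 to 24 with 1 array left out. Where no count of all genes is given beside these counts, they say only how many members were called. The 10 members 2-fold apart from the newborns became 11 to 14 with 1 pnd2 array left out. Median scaling moved the median change of all tested probe sets over the span from 0.01 to -0.13, and at gd16 from 0.08 to -0.10. TALE, Polycomb and duct gene counts without gd11 sample 16, gd12 sample 14 or gd16 sample 7 were added after seeing the data: over the span 4 to 5 TALE genes were lower. Signals near the Y-linked background have no order. No paired analysis was possible because sample numbers are not shared between stages.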
